A study of Mus musculus with 12 samples.

Results

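The endothelial junction and surface molecules described here are 10 genes chosen by symbol: Pecam1, Cldn5, Cdh5, Esam, Jam2, Jam3, Cd34, Emcn, Icam2 and Robo4. All 10 were found among the 45664 gene entries of the count table, and all 10 were among the 20691 genes with enough counts to be tested. Their RNA was measured by sequencing of whole mouse embryonic hearts in 12 libraries, in which Ino80 had been disrupted in the endothelium with Tie2 (KO) or not (WT). The 4 groups held 3 libraries each: E13.5 KO (replicates 3, 5 and 7) and E13.5 WT (1, 2 and 4), all from litter 1; and E14.5 KO (1, 2 and 4) and E14.5 WT (7, 7.2 and 8). E14.5 KO replicate 1 and E14.5 WT replicate 7.2 came from litter 3 and the other E14.5 libraries from litter 2. Ino80 encodes the ATPase of a chromatin remodelling complex, and Tie2 (Tek) is a receptor of endothelial cells that is also made by some blood cells, so a Tie2-driven disruption may reach both. The strain, the deleted part of the gene and the alleles that the WT embryos carried are not given in the sources used here. A library is called a heart below, although the labels do not say whether hearts were pooled; p-values measure the spread between these libraries.

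Endothelial cells line vessels and the inner wall of the heart and are held together by adherens junctions and tight junctions. Cdh5 encodes VE-cadherin, the adherens junction cadherin of endothelium; Cldn5, Esam, Jam2 and Jam3 encode proteins of or near the tight junction; and Pecam1 encodes a homophilic adhesion receptor at cell borders. Cd34 and Emcn encode sialomucins of the cell surface, Icam2 a ligand of leukocyte integrins at endothelial contacts, and Robo4 a Roundabout-family receptor found on endothelium. Several of them are not limited to endothelium: leukocytes also make Pecam1 and Icam2, platelets make Pecam1, Esam, Icam2 and Jam3, and fibroblasts and blood progenitors make Cd34.

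Libraries held 46556032 to 182545647 counts. The member with the fewest counts in any heart was Jam2 with 293, and the most were 48780, for Cdh5. Ino80 itself had 27.0 to 31.9 CPM (read counts scaled to library size) in KO hearts and 30.7 to 36.6 CPM in WT hearts. Its log2 fold change was -0.15 ± 0.06 (SE), with an edgeR adjusted p of 0.225. Because the disruption was endothelial and the RNA came from whole hearts, this measure does not check it, and which exons were deleted is not given. The 10 cardiomyocyte markers summed to 22944 to 30080 CPM in KO hearts and 25239 to 30708 CPM in WT hearts. One library stood apart: E14.5 KO replicate 1 had 41955 CPM of the 12 erythroid markers, against 4912 to 18419 CPM in the other hearts, so results are also given without it where that changes a call. In bulk RNA, fewer cells of a type and less RNA per cell cannot be told apart.

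Per kilobase of exon, Cdh5 was the most abundant of the 10 genes, at 60.5 ± 5.30 CPM per kb (SD over 12 hearts). It lay above the next gene, Icam2 (25.5 ± 3.64 CPM per kb), in 12 of 12 hearts. Pecam1 (20.6 ± 4.08), Esam (20.5 ± 2.77), Cd34 (16.7 ± 2.67), Emcn (14.0 ± 2.18) and Cldn5 (12.2 ± 5.04 CPM per kb) followed, and neighbours in that order overlapped. Jam3 (8.12 ± 0.595), Robo4 (3.09 ± 0.610) and Jam2 (1.72 ± 0.720 CPM per kb) were the lowest by their means over all hearts, and in 12 of 12 hearts Jam3 lay above Robo4 and Robo4 above Jam2. Part of this order differed between genotypes: Pecam1 was above Esam per kilobase in 0 of 3 KO and 3 of 3 WT hearts at each stage. Icam2 was above Pecam1 in 3 of 3 KO and 1 of 3 WT hearts at each stage. Cldn5 was above Jam3 in 0 of 3 E13.5 KO hearts (means 6.59 and 7.89 CPM per kb) and 3 of 3 E13.5 WT hearts, and in 3 of 3 hearts of each genotype at E14.5. It was above Emcn in 0 of 3 KO and 1 of 3 WT hearts at E13.5, and in 1 of 3 KO and 3 of 3 WT hearts at E14.5.

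**Figure D1:**
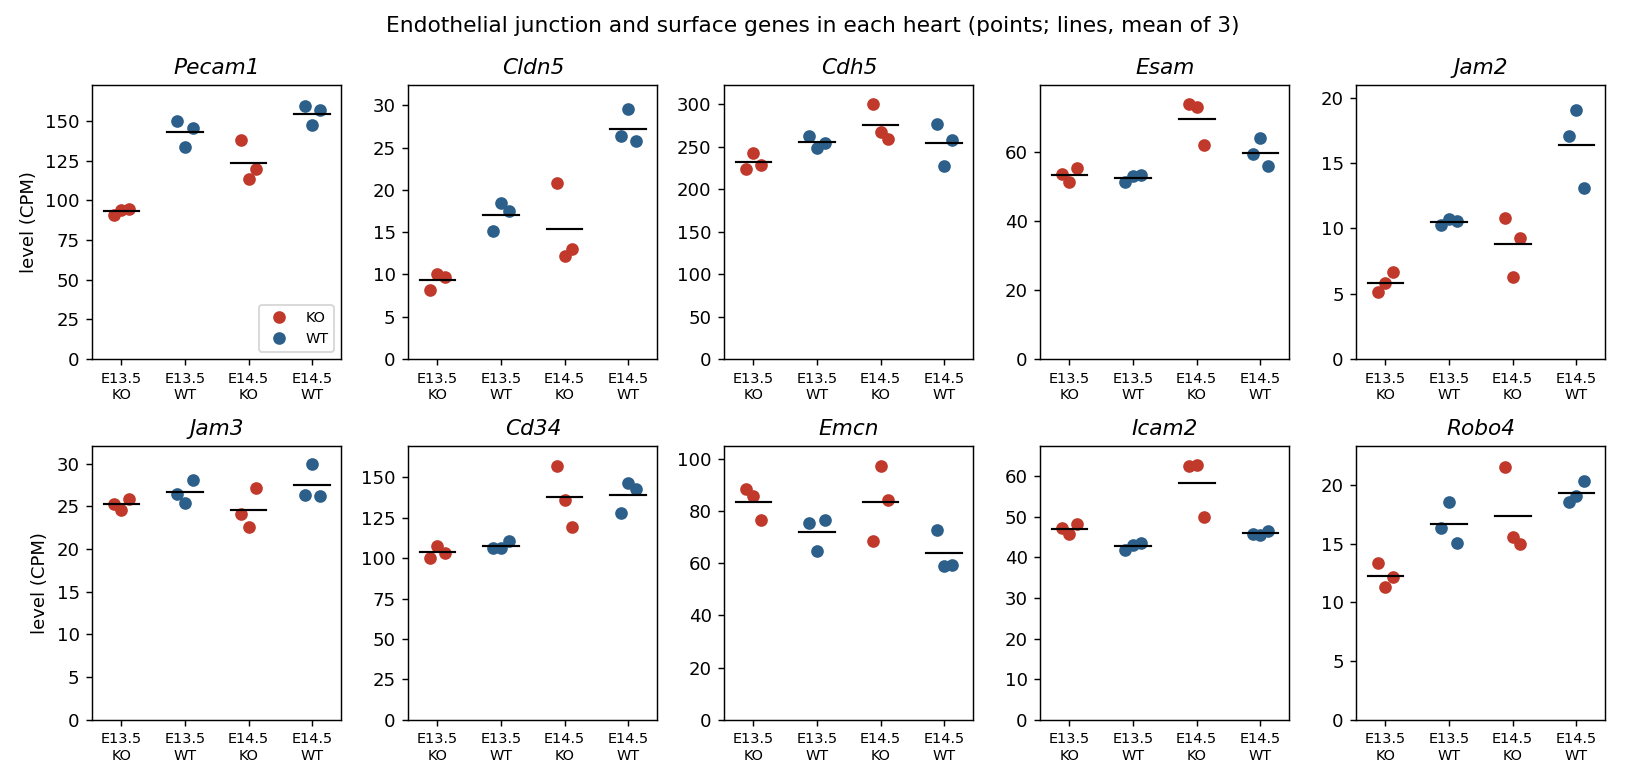
Level of each of the 10 genes (CPM, y axis from 0) in every heart, with KO hearts in red to the left of WT hearts in blue at each stage and a line at the mean of 3. KO points of Pecam1, Cldn5 and Jam2 lie below all WT points of their stage, while KO and WT points of Cdh5 overlap at E14.5.

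Of the 10 genes, 3 fell in KO hearts when the genotype effect was averaged over the stages, and none rose with edgeR: Pecam1, Cldn5 and Jam2. DESeq2 called 6 of the 10, where it called 933 of the 20691 genes tested. The 6 were these 3 and also Icam2 and Emcn as higher and Robo4 as lower in KO. Over all genes tested, 1.56% passed the same threshold (edgeR quasi-likelihood test, Benjamini-Hochberg adjusted p under 0.05), 0.594% lower and 0.962% higher in KO. The median log2 fold change of the 10 genes was -0.08, against -0.002 over all genes. The same 3 genes were those with all KO hearts below all WT hearts at both stages, a pattern found in 1.50% of all genes.

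Pecam1 had 90.6, 93.9 and 94.5 CPM in E13.5 KO hearts, against 150, 134 and 146 CPM in E13.5 WT hearts. At E14.5 it had 138, 113 and 120 CPM in KO hearts, against 159, 148 and 157 CPM in WT hearts. The KO hearts were the lower ones at both stages without overlap, and the E13.5 KO hearts lay within a few CPM of each other. Averaged over the stages, Pecam1 fell by 27.9% in KO hearts (log2 fold change -0.47 ± 0.05 SE, edgeR adjusted p = 0.00112), and its p was number 14 in order among all genes. The gene lies on the minus strand of chromosome 11 (106654217 to 106750628 on GRCm38) and has 17 exons.

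Cldn5, the main claudin of endothelial tight junctions, had 8.21, 10.1 and 9.73 CPM in E13.5 KO hearts, against 15.2, 18.4 and 17.6 CPM in E13.5 WT hearts. E14.5 KO hearts had 20.8, 12.2 and 13.1 CPM, against 26.4, 29.5 and 25.8 CPM in E14.5 WT hearts. The highest E14.5 KO value was that of replicate 1, and it still lay below every WT heart of its stage. Averaged over the stages, Cldn5 fell by 44.5% (log2 fold change -0.85 ± 0.12, edgeR adjusted p = 0.00625). Without E14.5 KO replicate 1 the log2 fold change was -0.99 (edgeR adjusted p = 0.000185). Cldn5 is a gene of 1 exon on the plus strand of chromosome 16 (18776847 to 18778262 on GRCm38).

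Jam2, a junctional adhesion molecule of the immunoglobulin family, had 5.13, 5.78 and 6.65 CPM in E13.5 KO hearts, against 10.3, 10.7 and 10.6 CPM in E13.5 WT hearts. The E14.5 values were 10.8, 6.31 and 9.28 CPM in KO hearts, against 17.0, 19.1 and 13.1 CPM in WT hearts. No KO heart reached a WT heart of its stage. Averaged over the stages, Jam2 fell by 45.4% (log2 fold change -0.87 ± 0.13, edgeR adjusted p = 0.00704). It also lies on the plus strand of chromosome 16 (84774123 to 84825928) and was the least abundant member per kilobase.

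Cdh5 did not follow them. It had 224, 243 and 228 CPM in E13.5 KO hearts, against 263, 249 and 255 CPM in E13.5 WT hearts. A day later the values were 301, 268 and 259 CPM in KO hearts, against 277, 227 and 258 CPM in WT hearts. KO hearts were the lower ones at E13.5 by a small margin and overlapped WT hearts at E14.5. Averaged over the stages, its log2 fold change was -0.01 ± 0.06 (edgeR adjusted p = 0.944), with a 95% interval from -0.14 to 0.11. That interval lies above those of Pecam1 (-0.59 to -0.36), Cldn5 (-1.11 to -0.58) and Jam2 (-1.15 to -0.59). The sign of this small value was not stable: it was 0.01 with Y-linked expression as a covariate, and went up to 0.02 when 1 library was left out.

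**Figure D2:**
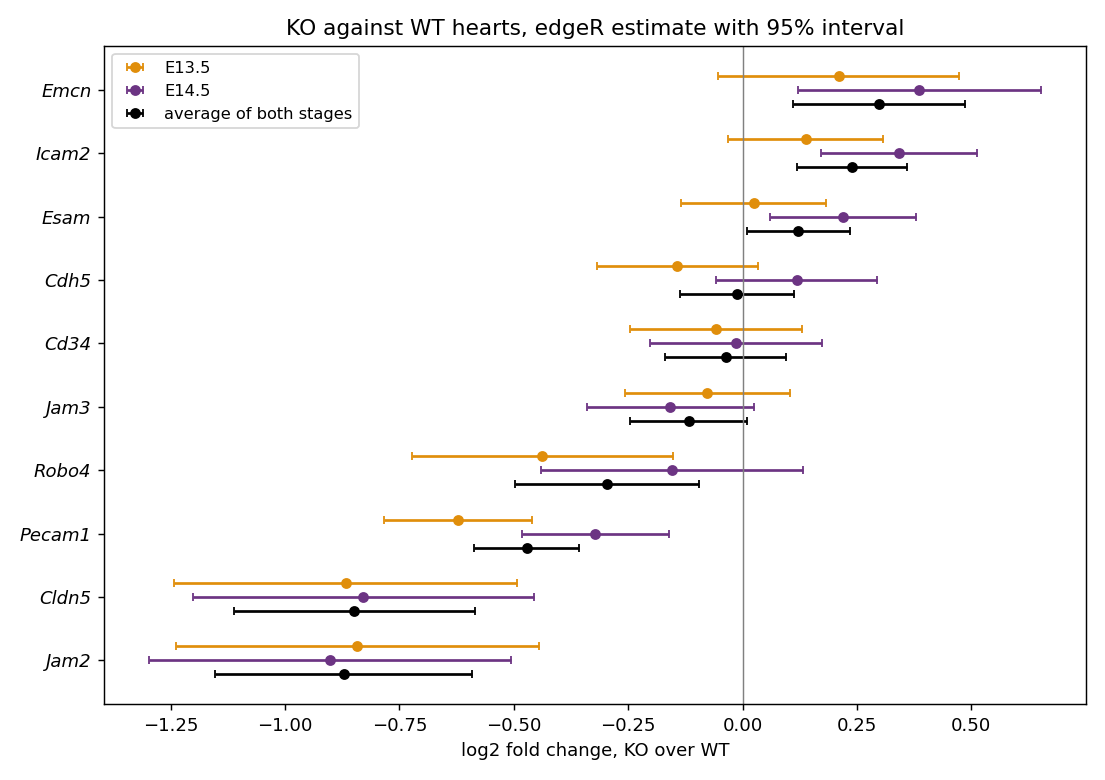
Log2 fold change of each gene, KO over WT, for E13.5 (orange), E14.5 (purple) and the average of both (black), with its 95% interval (edgeR). The averaged estimates of Jam2, Cldn5 and Pecam1 lie between -0.87 and -0.47, and that of Cdh5 is -0.01.

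Because Cdh5 and the other genes were counted in the same library, their ratio does not depend on how libraries were scaled. Pecam1 counts were 38.7% to 41.4% of Cdh5 counts in E13.5 KO hearts, against 53.6% to 57.2% in E13.5 WT hearts. At E14.5 they were 42.3% to 46.2% in KO hearts, against 57.5% to 64.9% in WT hearts. Cldn5 counts were 3.66% to 4.27% of Cdh5 counts in E13.5 KO hearts, against 5.76% to 7.39% in E13.5 WT hearts. At E14.5 they averaged 5.50% ± 1.25 in KO hearts and 10.8% ± 1.87 in WT hearts (SD, n = 3 each). The groups did not overlap in any of these comparisons. The Pecam1/Cdh5 ratio was 0.726 times as high in KO as in WT hearts (stage-averaged log2 difference -0.46), and the Cldn5/Cdh5 ratio 0.552 times (-0.86). In a two-sided exact permutation test of genotype within stage, over 400 arrangements, p was 0.005 for both, as was p adjusted over the 2 ratios; 0.005 is the smallest value this test can give. The geometric mean of 24 genes listed as pan-endothelial was also used as the denominator in place of Cdh5. The log2 differences were then -0.53 for Pecam1 and -0.92 for Cldn5, each with exact permutation p = 0.005.

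**Figure D3:**
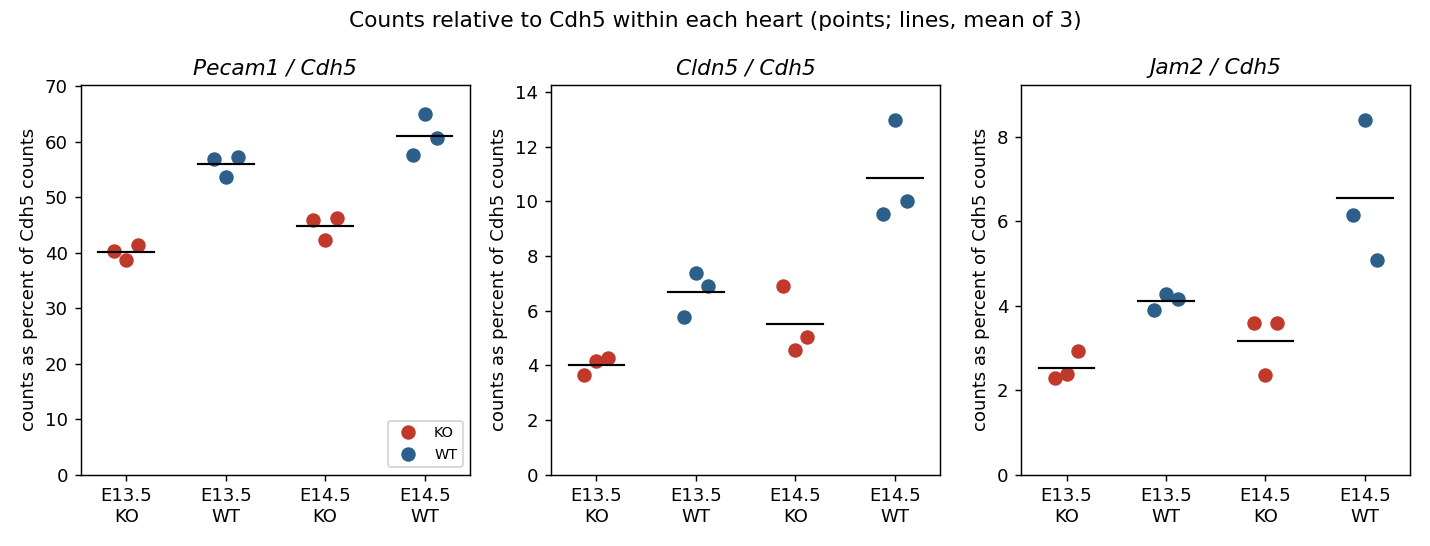
Counts of Pecam1, Cldn5 and Jam2 as a percent of Cdh5 counts in the same heart (y axis from 0; exon length not corrected), KO in red to the left of WT in blue at each stage, with a line at the mean of 3. In each panel the KO points lie below all WT points of their stage; Pecam1 averages 40.2% in KO against 55.9% in WT at E13.5, and 44.8% in KO against 61.1% in WT at E14.5.

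Jam2 counts averaged 2.53% ± 0.339 of Cdh5 counts in E13.5 KO hearts and 4.12% ± 0.196 in E13.5 WT hearts (SD, n = 3 each). At E14.5 they averaged 3.17% ± 0.709 in KO hearts and 6.54% ± 1.70 in WT hearts. Jam3, the closest relative of Jam2 among the 10 genes, had 24.5 to 25.9 CPM in E13.5 KO hearts and 25.4 to 28.1 CPM in E13.5 WT hearts. At E14.5 it had 22.6 to 27.2 CPM in KO hearts and 26.2 to 29.9 CPM in WT hearts. The genotypes overlapped at both stages, and the averaged log2 fold change was -0.12 ± 0.06 (edgeR adjusted p = 0.376).

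Icam2 was the 1 gene of the 10 whose KO hearts all lay above all WT hearts at both stages, as 1.75% of all genes did. It had 47.3, 45.7 and 48.2 CPM in E13.5 KO hearts, against 41.7, 43.0 and 43.6 CPM in E13.5 WT hearts. E14.5 KO hearts had 62.6, 62.6 and 49.8 CPM, against 45.9, 45.6 and 46.6 CPM in E14.5 WT hearts. Its averaged log2 fold change was 0.24 ± 0.06 and missed the threshold (edgeR adjusted p = 0.0538). The adjusted p was 0.00510 without E14.5 KO replicate 4, the lowest E14.5 KO heart, and 0.00545 with DESeq2. With edgeR it was 0.0400 with no low-count filter and 0.0488 with Y-linked expression as a covariate. Over the alternatives it lay between 0.00510 and 0.205. Icam2 (106377656 to 106388075) and Pecam1 are on the same strand of the same stretch of chromosome 11, and their estimates had opposite signs.

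Emcn had 88.5, 85.5 and 76.3 CPM in E13.5 KO hearts, against 75.4, 64.5 and 76.4 CPM in E13.5 WT hearts. The E14.5 values were 68.5, 97.1 and 84.1 CPM in KO hearts, against 72.7, 58.9 and 59.4 CPM in WT hearts. The genotypes overlapped by 1 heart at each stage, and the averaged log2 fold change of 0.30 ± 0.09 did not pass the test (edgeR adjusted p = 0.118). The lowest E14.5 KO heart was replicate 1, without which the value was 0.36 and the edgeR adjusted p 0.0310. With DESeq2 the adjusted p was 0.0326.

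Robo4 had 13.3, 11.3 and 12.1 CPM in E13.5 KO hearts, against 16.3, 18.5 and 15.1 CPM in E13.5 WT hearts. At E14.5 it had 21.5, 15.6 and 14.9 CPM in KO hearts, against 18.5, 19.1 and 20.3 CPM in WT hearts. All KO hearts lay below WT hearts at E13.5, while at E14.5 replicate 1 was the highest of its stage. The averaged log2 fold change was -0.30 ± 0.09 (edgeR adjusted p = 0.148); without E14.5 KO replicate 1 it was -0.39 (edgeR adjusted p = 0.0184). With DESeq2 the adjusted p was 0.0497, and without litter 3 the edgeR adjusted p was 0.0360.

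Esam and Cd34 showed no genotype difference past the test. Esam had 51.4 to 55.3 CPM in E13.5 KO hearts and 51.3 to 53.4 CPM in E13.5 WT hearts, and 62.1 to 73.9 CPM in E14.5 KO hearts and 56.0 to 64.0 CPM in E14.5 WT hearts. Its averaged log2 fold change was 0.12 ± 0.05 (edgeR adjusted p = 0.297). Cd34 had 99.9 to 107 CPM in E13.5 KO hearts and 106 to 110 CPM in E13.5 WT hearts, and 119 to 157 CPM in E14.5 KO hearts and 128 to 146 CPM in E14.5 WT hearts. Its averaged log2 fold change was -0.04 ± 0.06 (edgeR adjusted p = 0.816), with a 95% interval from -0.17 to 0.10. An antisense gene, Gm16897, overlaps Cd34 and had 15 to 104 counts; the sources used here do not state whether counting used strand.

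**Figure D4:**
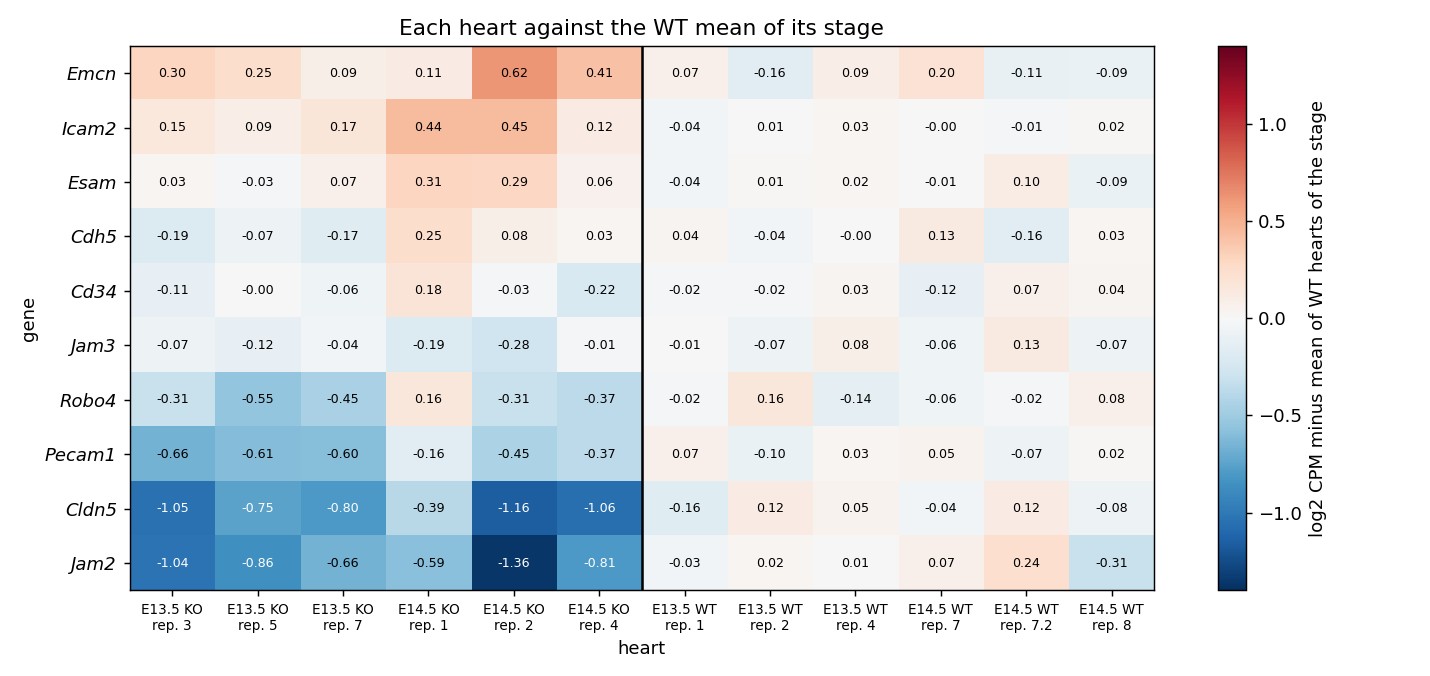
Log2 CPM of each gene in each heart minus the mean of the WT hearts of its stage, printed in each cell, with KO hearts left of the black line and WT hearts right of it. Pecam1, Cldn5 and Jam2 are below 0 in 6 of 6 KO hearts, from -0.16 for Pecam1 in E14.5 KO replicate 1 to -1.36 for Jam2 in E14.5 KO replicate 2, while Icam2 and Emcn are above 0 in all 6.

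At single stages fewer genes passed. At E13.5 only Pecam1 did among the 10 (log2 fold change -0.62 ± 0.07, edgeR adjusted p = 0.0121), where 0.0773% of all genes passed. That call was lost when KO replicate 3 (edgeR adjusted p = 0.0643), KO replicate 5 (0.0550), WT replicate 1 (0.0613) or WT replicate 4 (0.0864) of the stage was left out. Of all genes, 3, 1, 3 and 2 passed in these fits in that order, against 16 as reported. The Pecam1 estimate in them lay between -0.63 and -0.59. Cldn5 (-0.87 ± 0.17, edgeR adjusted p = 0.103) and Jam2 (-0.84 ± 0.18, 0.143) had estimates close to their averages. With litter as a block the edgeR adjusted p of Cldn5 was 0.0186. All E13.5 hearts are of litter 1, so here the block changes the estimate of spread and does not adjust the comparison. Without E14.5 KO replicate 2 their adjusted p were 0.0465 and 0.0330, and without E14.5 KO replicate 1 that of Cldn5 was 0.00808. KO hearts lay below WT hearts for Pecam1, Cldn5, Jam2, Cdh5 and Robo4, against 11.2% of all genes, and above them for Icam2, against 8.44%.

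At E14.5, 0 of the 10 passed with edgeR, against 0.242% of all genes. DESeq2 called 4 of the 10, where it called 337 of the 20691 genes tested. With litter as a block, which compares the genotypes within litters 2 and 3, Cldn5 (-0.87, edgeR adjusted p = 0.0170) and Jam2 (-0.91, 0.0308) passed. The estimates were -0.32 ± 0.07 for Pecam1 (edgeR adjusted p = 0.123), -0.83 ± 0.17 for Cldn5 (0.0799), -0.90 ± 0.18 for Jam2 (0.0762) and 0.34 ± 0.08 for Icam2 (0.123). Without E14.5 KO replicate 1 the edgeR adjusted p were 0.0211 for Pecam1, 0.00517 for Cldn5 and 0.0372 for Jam2, and without E14.5 KO replicate 4 that of Icam2 was 0.0114. KO hearts lay below WT hearts for Pecam1, Cldn5 and Jam2, against 5.87% of all genes, and above them for Icam2, against 6.81%.

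The change in KO effect between stages (E14.5 less E13.5) passed for 0 of the 10 genes and for 0% of all genes with edgeR; DESeq2 called 0 of the 10 and 2 genes in all. The difference was 0.30 ± 0.10 for Pecam1 and 0.26 ± 0.11 for Cdh5, with unadjusted p of 0.0138 and 0.0415 and an edgeR adjusted p of 0.996 for each. These were the members with an unadjusted p under 0.05. A stage difference in the genotype effect was therefore not shown for any member. Within litters, the mean log2 CPM of KO hearts less that of WT hearts was taken. For Pecam1 it was -0.62 in litter 1, -0.44 in litter 2 and -0.10 in litter 3, the last from 1 heart of each genotype. Cldn5 gave -0.87, -1.05 and -0.50 in litters 1, 2 and 3, and Jam2 gave -0.85, -0.97 and -0.83. Cdh5 gave -0.14, -0.02 and 0.40. No KO heart of the 3 genes that fell reached a WT heart of its stage, so their values below 0 in all 3 litters were fixed by that. The value of Cdh5 was higher than theirs in each litter.

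Between the stages, 5 genes rose in KO hearts and 2 in WT hearts, but stage is confounded with litter, since litter 1 holds all E13.5 hearts. In KO hearts, the log2 fold changes of E14.5 over E13.5 were 0.72 ± 0.17 for Cldn5 (edgeR adjusted p = 0.0425), 0.41 ± 0.09 for Cd34 (0.0293), 0.41 ± 0.07 for Pecam1 (0.0182), 0.38 ± 0.07 for Esam (0.0213) and 0.31 ± 0.08 for Icam2 (0.0485), where 3.76% of all genes passed. In WT hearts they were 0.68 ± 0.17 for Cldn5 (edgeR adjusted p = 0.0474) and 0.37 ± 0.09 for Cd34 (0.0399), where 3.70% of all genes passed. Pecam1 gave 0.11 ± 0.07 in WT hearts (edgeR adjusted p = 0.391); the difference between genotypes is the stage difference tested above. Jam2 had values of 0.58 ± 0.18 in KO hearts (edgeR adjusted p = 0.0954) and 0.64 ± 0.18 in WT hearts (0.0648). Cdh5 differed by 0.25 ± 0.08 in KO hearts (edgeR adjusted p = 0.104) and by -0.01 ± 0.08 in WT hearts (0.956). E14.5 hearts lay above E13.5 hearts without overlap for 7 of the 10 genes in KO (12.1% of all genes) and 5 of the 10 in WT (14.0%). With litter as a block, Cldn5 (edgeR adjusted p = 0.0737) and Icam2 (0.111) no longer passed in KO hearts, nor did Cldn5 (0.0679) and Cd34 (0.0682) in WT hearts. In KO hearts 0 of the 5 passed when libraries were scaled to the 24 pan-endothelial genes (edgeR adjusted p from 0.0508 to 0.311) or when only the KO libraries were fitted (0.0540 to 0.129). Over all genes, 2345 passed in KO hearts with that scaling and 197 with only the KO libraries, against 779 as reported. With litter as a block, 303 of all genes passed in KO hearts and 243 in WT hearts, the latter against 766 as reported.

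Single libraries also ended these stage calls. Without E14.5 KO replicate 1, Pecam1 still passed in KO hearts (edgeR adjusted p = 0.0499), while Cldn5 (0.0843), Esam (0.0685), Cd34 (0.0730) and Icam2 (0.131) did not. In WT hearts Jam2 then passed as well (0.64, edgeR adjusted p = 0.0482). In KO hearts none passed without E13.5 KO replicate 3, 5 or 7. Of all genes, 104, 140 and 49 passed there, against 779 as reported. In KO hearts 3 members passed without any 1 of the E13.5 WT hearts or without E14.5 WT replicate 7 or 8. Of all genes, 363 to 628 passed there. In WT hearts none passed without any 1 of the E13.5 hearts or without E14.5 WT replicate 7.2, and 1 without E14.5 WT replicate 7 or 8. Without E13.5 WT replicates 1, 2 and 4, 10, 8 and 27 of all genes passed in WT, and 15 without replicate 7.2. Without E13.5 KO replicates 3, 5 and 7 the number was 500, 379 and 480, against 766 as reported.

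**Figure D5:**
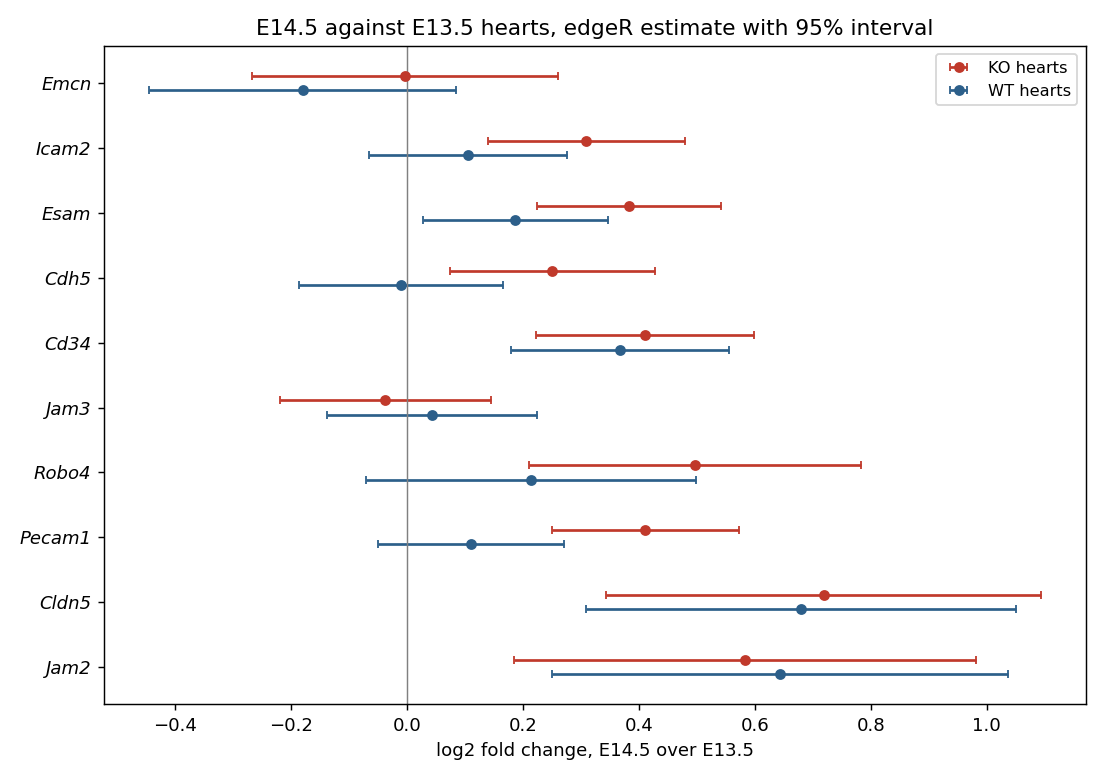
Log2 fold change of each gene, E14.5 over E13.5, with its 95% interval (edgeR), KO hearts above WT hearts for each gene. The estimates of Cldn5 are alike in KO (0.72) and WT hearts (0.68), and those of Emcn and Jam3 have intervals across 0 in both.

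Cldn5 is the 1 gene of the 3 that fell whose promoter is in the RefSeq table used here (GRCm38.p6), which holds 4 of the 10 genes. Its 250 bases before the start are shown beside those of Emcn, a member with a positive estimate, because ETS and SOX factors are known to act on many endothelial promoters. Capitals mark AGGAAG, the ETS motif searched, and ACAAT, the SOX motif searched, on either strand (as CTTCCT or ATTGT on the minus strand).
Cldn5 promoter, chr16:18776597-18776846, plus strand: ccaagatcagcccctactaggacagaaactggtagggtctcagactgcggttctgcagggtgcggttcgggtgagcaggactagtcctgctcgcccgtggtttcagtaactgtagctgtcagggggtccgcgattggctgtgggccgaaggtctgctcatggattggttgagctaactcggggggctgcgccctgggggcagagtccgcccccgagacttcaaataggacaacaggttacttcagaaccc
Emcn promoter, chr3:137340828-137341077, plus strand: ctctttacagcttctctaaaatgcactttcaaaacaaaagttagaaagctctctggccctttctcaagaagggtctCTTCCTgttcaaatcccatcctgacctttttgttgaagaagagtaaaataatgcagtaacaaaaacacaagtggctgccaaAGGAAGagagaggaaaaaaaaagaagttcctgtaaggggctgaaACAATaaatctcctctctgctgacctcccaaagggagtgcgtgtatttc
The Cldn5 window held 0 matches of either motif and was 59.6% G and C. The Emcn window was 40.8% G and C and held 2 ETS matches, 174 bases before the start on the minus strand and 93 on the plus strand, and 1 SOX match at 49 bases. Cd34 had 1 ETS and 1 SOX match, and Robo4 1 ETS and 2 SOX matches. The motifs do not overlap one another in these windows. Among 32851 promoter windows of 250 bases, 29.48% held the ETS motif and 27.66% the SOX motif, so such matches are common and mark no site.

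Of 28 catenin, zonula occludens, claudin, nectin and connexin genes and related junction genes, 1 fell and 0 rose in KO hearts averaged over the stages, where 1.56% of all genes passed. The median log2 fold change was -0.02, with estimates in both directions. The 1 was Pcdh12, which encodes VE-cadherin-2, a protocadherin of endothelium. It averaged 14.0 CPM in E13.5 KO and 19.9 CPM in E13.5 WT hearts, and 20.8 CPM in E14.5 KO and 27.2 CPM in E14.5 WT hearts (log2 fold change -0.45 ± 0.08, edgeR adjusted p = 0.0133). Among the genes with a positive estimate the smallest p was that of Cldn3, a claudin of epithelia, at 0.86 ± 0.26 (edgeR adjusted p = 0.129), with means under 1 CPM in all groups. The catenins that bind VE-cadherin had estimates near 0: Ctnnb1 0.007, Ctnna1 0.03, Ctnnd1 0.01 and Jup -0.05. These are values of whole hearts, in which the endothelial part of catenin RNA was not measured.

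Of 25 other surface adhesion and guidance genes, 3 rose and 0 fell, where 0.962% of all genes rose and 0.594% fell. The median log2 fold change was 0.07. Itgb3, an integrin beta subunit, had 18.4 CPM in E13.5 KO and 13.2 CPM in E13.5 WT hearts, and 16.0 CPM in E14.5 KO and 10.9 CPM in E14.5 WT hearts (log2 fold change 0.52 ± 0.08, edgeR adjusted p = 0.00654). Podxl, a sialomucin of the Cd34 family, rose by 0.27 ± 0.05 (edgeR adjusted p = 0.0139), and Plvap, a protein of endothelial fenestrae and caveolae, by 0.44 ± 0.10 (0.0423). The negative estimate with the smallest p was that of Vcam1, an adhesion receptor for leukocytes, at -0.16 ± 0.09 (edgeR adjusted p = 0.427). At each single stage 0 genes of either list passed with edgeR.

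The other marker lists are given beside these values, averaged over the stages, where 0.962% of all genes rose and 0.594% fell. Of 24 genes listed as pan-endothelial, 3 rose (Eng, Lyl1 and Tal1), 0 fell and the median log2 fold change was 0.08. The median was -0.06 at E13.5 and 0.23 at E14.5. Whether these genes are limited to endothelium in these hearts was not tested. Of 18 macrophage and leukocyte markers, 18 had negative estimates, with a median of -0.85, and 0 passed. They summed to 103, 48.8 and 122 CPM in E13.5 KO hearts, against 179, 185 and 190 CPM in E13.5 WT hearts. At E14.5 they summed to 161, 53.1 and 202 CPM in E14.5 KO replicates 1, 2 and 4, against 153 to 156 CPM in WT hearts. In the same order, Pecam1 had 138, 113 and 120 CPM. Replicate 2 was the lowest of the stage in both. Replicates 1 and 4 were above the WT hearts in the markers and below them in Pecam1. At E13.5 both measures were lower in every KO heart than in any WT heart. Pecam1 then had 90.6 to 94.5 CPM in KO and 134 to 150 CPM in WT hearts. Among the E13.5 KO hearts, replicate 5 was the lowest in the markers and replicate 3 in Pecam1. The part of leukocyte RNA in the Pecam1 values was not tested at either stage.

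The 11 platelet markers overlapped between genotypes, with sums of 21.3 ± 5.71 CPM in E13.5 KO and 20.2 ± 5.39 CPM in E13.5 WT hearts, and of 22.2 ± 2.27 CPM in E14.5 KO and 19.5 ± 5.97 CPM in E14.5 WT hearts. Of 6 mast cell and progenitor markers tested, Cpa3 and Cma1 fell and Kit rose, where 1.56% of all genes passed in either direction. Of 8 endocardial markers, Plvap rose and Cytl1 fell, and of 10 mural markers Cnn1 rose. None of the 10 cardiomyocyte, 12 erythroid, 7 lymphatic or 12 epicardial and fibroblast markers passed. Their part in the members' values was not tested.

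Among 10783 other genes that averaged 5 CPM or more, those whose centred log2 CPM lay closest to each of 3 members over the 12 hearts were named. For Pecam1 they were Cpe, Arhgap27 and Kif26a, with root mean square differences of 0.09, 0.11 and 0.12, where Pecam1 itself varied with an SD of 0.29. For Cldn5 they were Aplnr, Sema3g and Col15a1 (0.19, 0.19 and 0.22, SD of Cldn5 0.58). For Cdh5 they were Erg, Thsd1 and Sipa1l3 (0.05, 0.06 and 0.07, SD of Cdh5 0.12). The lists did not share a gene. The averaged log2 fold change of Aplnr, the apelin receptor, was -1.04 ± 0.13 (edgeR adjusted p = 0.00344), and that of Erg, an endothelial ETS factor, -0.01 ± 0.06 (0.956). This likeness uses the same 12 hearts and is a description.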

How the data were processed

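RNA of whole hearts was sequenced in 12 libraries, 3 in each group. The deposited values are raw read counts per gene symbol, not normalized. Per the submitters' processing notes, STAR 2.5.3a, featureCounts, DESeq2 and DESeq were used with GRCm38; the sources used here state neither their roles nor the strand setting or annotation. Counts as deposited were analysed with edgeR 4.0.16 in R 4.3.3. The filter filterByExpr left 20691 genes. All 12 libraries were scaled by TMM and entered 1 quasi-likelihood model with a term for each group, which had 8 residual degrees of freedom and a biological coefficient of variation of 17.1%. Two-sided F-tests were adjusted by Benjamini-Hochberg across every gene tested, with 0.05 as the threshold. The SE of a log2 fold change is its size over the square root of F. The averaged effect is the mean of the KO effects at both stages. Exon lengths and gene positions come from GENCODE M21 (GRCm38), by symbol, and promoters from RefSeq. In a chi-square check of counts, no libraries of 1 group were copies of each other (18.4 to 152 per degree of freedom).

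All 10 members are named, with the partner genes that passed in a KO comparison, the partner gene with the smallest p in each direction, and the 3 genes most like Pecam1, Cldn5 and Cdh5. The members, lists and tests were chosen with earlier results of these data known. Alternatives were DESeq2 1.42.0, RLE factors, scaling to the pan-endothelial genes, no filter on low counts, fits to the compared groups alone, a litter term, a covariate for Y-linked expression, leaving out each library, litter 3, or replicates 5 (E13.5) and 2 (E14.5) of the KO together, and, chosen after seeing the data, a robust spread estimate. The script was tested on simulated data.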

Additional observations from a re-analysis of the deposited data

How the results depend on the processing

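Pecam1, Cldn5 and Jam2 passed the averaged comparison under all 21 alternatives, with edgeR or DESeq2 adjusted p of at most 0.0122, 0.0302 and 0.0276; with 1 library left out, their log2 fold changes ranged from -0.52 to -0.44, -0.99 to -0.78 and -0.96 to -0.78. Both ratios to Cdh5 kept their direction, with exact permutation p under the threshold in every alternative. With 1 library left out they were -0.48 to -0.44 for Pecam1 and -0.95 to -0.79 for Cldn5. The genotypes did not overlap in either ratio at either stage, so these outcomes were largely fixed by that and add no support. The exact p was the smallest its arrangements allow (0.00833 when permuted within litter), except for Cldn5 without E14.5 WT replicate 7.2 (0.01, smallest 0.005). No paired analysis was possible because the KO and WT groups compared share no replicate number within a stage; litter was used as a block instead.

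The count of members passing moved as follows. In the averaged comparison it was 3, and 6 with DESeq2. Beyond the 3, Icam2 also passed with no low-count filter (edgeR adjusted p = 0.0400) and with the Y-linked covariate (0.0488). Robo4 also passed with litter 3 left out (edgeR adjusted p = 0.0360). Of all genes, 467, 341 and 324 passed under these settings in that order, against 322 as reported. At E13.5 the count of members was 1, but 3 with no low-count filter, with only the libraries compared and with DESeq2. It was 2 with litter as a block and with litter 3 left out. At E14.5 it was 0, but 3 with pan-endothelial scaling, 4 with DESeq2, and 2 with no filter, with litter as a block and with litter 3 left out. For stage in KO hearts it was 5, but 0 with pan-endothelial scaling and with only the libraries compared, and 8 with DESeq2. It was 3 with litter as a block, and 2 with the Y-linked covariate and with litter 3 left out. With KO replicates 5 (E13.5) and 2 (E14.5) left out together it was 1. Robo4 also passed in KO hearts with no low-count filter (edgeR adjusted p = 0.0387). For stage in WT hearts the count was 2, but 0 with litter as a block, with litter 3 left out and without those 2 KO replicates. It was 1 with the Y-linked covariate. Jam2 also passed in WT hearts with no low-count filter (edgeR adjusted p = 0.0411), with only the libraries compared (0.0431) and with DESeq2 (adjusted p = 0.0102). Of all genes, 1008, 556 and 2129 passed there in that order, against 766 as reported. With 1 library left out the count of members ranged from 3 to 5 (averaged), 0 to 3 (E13.5), 0 to 3 (E14.5), 0 to 6 (stage in KO) and 0 to 3 (stage in WT). The cause of these shifts was not tested, and the number of all genes passing moved too. For stage in KO, 779 passed as reported, 2345 with pan-endothelial scaling, 197 with only the libraries compared and 303 with the litter block. It was 405 with the Y-linked covariate, 624 without litter 3 and 121 without the 2 KO replicates. For stage in WT, 766 passed as reported, 243 with the litter block, 67 without litter 3 and 458 without the 2 KO replicates. It was 624 with the Y-linked covariate. DESeq2 also called more of all genes than edgeR: 933 averaged, 306 at E13.5, 337 at E14.5 and 1832 for stage in KO. At E13.5, 16 passed as reported, 95 with no filter, 64 with only the libraries compared, 55 with the litter block and 56 without litter 3. At E14.5, 50 passed as reported, 135 with pan-endothelial scaling, 125 with no filter, 80 with the litter block and 57 without litter 3.

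Of all member values under alternatives, 1125 kept direction and side of the threshold, 81 no longer passed, 49 newly passed and 45 changed sign. None of the sign changes was in a value that passed. For Cdh5 the averaged log2 value was 0.011 with the Y-linked covariate, the E14.5 value -0.058 with pan-endothelial scaling and -0.021 without litter 3, and the WT stage value 0.061 and 0.060 under the same 2 settings. With pan-endothelial scaling the E13.5 value of Cd34 was 0.0083, and the stage differences of the KO effect were -0.22 for Cldn5, -0.054 for Esam, -0.21 for Cd34, -0.052 for Emcn and -0.046 for Icam2. That difference was 0.12 for Jam2 without the 2 KO replicates, and -0.18 for Cldn5 and -0.028 for Cd34 without litter 3. The WT stage value of Jam3 was -0.027 without litter 3; the KO stage value of Emcn was 0.081 with litter as a block, 0.000166 with only the libraries compared and 0.11 without litter 3, and that of Jam3 0.000329 without the 2 KO replicates. Without E14.5 WT replicate 7.2 the E14.5 value of Cd34 was 0.022, the stage difference of the KO effect 0.070 for Jam2, the WT stage values 0.062 for Cdh5 and -0.026 for Jam3, and the KO stage value of Emcn 0.00065. With 1 of the other libraries left out, ranges across 0 were -0.046 to 0.021 (Cdh5) and -0.090 to 0.0062 (Cd34) averaged; -0.0028 to 0.050 (Esam, E13.5); -0.12 to 0.076 (Cd34, E14.5); -0.24 to 0.18 (Cldn5), -0.23 to 0.13 (Jam2) and -0.062 to 0.14 (Cd34) for the stage difference of the KO effect; -0.13 to 0.12 (Emcn) and -0.12 to 0.021 (Jam3) for stage in KO; and -0.084 to 0.0096 (Cdh5) for stage in WT.

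Pan-endothelial scaling moved the median of all genes to -0.18 at E14.5, 0.07 at E13.5, -0.25 for the stage difference of the KO effect, -0.16 for stage in KO and 0.08 for stage in WT. Over all genes, the number passing ranged over the alternatives from 67 to 933 (322 as reported) for the averaged comparison, 1 to 306 (16) at E13.5, 0 to 337 (50) at E14.5, 0 to 2 (0) for the difference, 49 to 2345 (779) for stage in KO and 8 to 2129 (766) for stage in WT.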
